A study of Homo sapiens with 8 samples.

Results

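The genes described here encode the intraflagellar transport complexes, the BBSome with its assembly chaperonins, and the ciliary transition zone, and they were chosen as a list of names: 6 genes of IFT-A, 17 of IFT-B, 12 of the BBSome group (8 BBSome subunits, 3 chaperonin-like genes and ARL6) and 14 of the transition zone. All 49 were found by symbol or alias among the 57500 genes counted, and all 49 passed the filter on low counts that left 19171 genes for testing. Their transcripts were measured by RNAseq in 8 libraries of HEK293T, an immortal line of human embryonic kidney origin that expresses SV40 large T antigen. DZNep (3-deazaneplanocin A) inhibits S-adenosylhomocysteine hydrolase and so lowers the methylation potential of a cell. The Control group comprised 4 libraries from cells given vehicle, and the DZNep group comprised 4 libraries from cells given 100 µM DZNep, both collected after 48 h of culture in serum-containing medium. All samples were of 1 cell line, and the sources used here describe neither serum starvation nor a selection of ciliated cells, so the values describe transcripts of these genes and not cilia.

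A cilium is a microtubule-based projection that carries receptors and, in many cells, the machinery of Hedgehog signalling. Its proteins are carried along the microtubules by trains of IFT-B, which moves outward with kinesin-2, and IFT-A, which returns with dynein-2. The BBSome is a coat-like cargo adaptor that rides on these trains and exports membrane proteins, and the transition zone is the gate of linked membrane and scaffold proteins at the ciliary base. Variants in genes of these groups underlie ciliopathies such as Bardet-Biedl, Joubert, Meckel and nephronophthisis syndromes. Promoters of cilium genes often hold an X-box, the pair of inverted half-sites that RFX transcription factors bind.

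The RefSeq promoter windows of GRCh38.p14, from 250 bases before to 50 bases after the annotated start, were searched on both strands for the X-box with 0 to 3 bases between its half-sites. Of the 49 genes, 44 had a window (all but WDR35, IFT22, BBS9, TCTN2 and TMEM67), and 8 of these (18.2%) held a match, against 459 of all 35116 windows (1.31%) and 200 of the 12923 windows of tested genes (1.55%). The 8 matches are shown because, of the 4 motifs searched, this one had the largest ratio between its share of these windows and of all windows. Each is written in the direction of its gene with 7 flanking bases on either side, and the capitals mark the X-box match.
IFT122 (chr3:129440205-129440233, plus strand): catgtacGTTGCCAGGGGTAACgcaggta
IFT57 (chr3:108222408-108222434, minus strand): tccggtgGTCGCCTGGTAACcggtcgt
IFT70A (chr2:177618720-177618747, minus strand): ttgccctGTTGCCGTGGTAACcgcacgc
IFT70B (chr2:177552782-177552809, minus strand): ttgctctGTTGCCATAGTAACcgcaccc
TCTN1 (chr12:110614122-110614148, plus strand): tgtcgcgGTTGCCGGGCAACgcgctgt
TCTN3 (chr10:95694123-95694149, minus strand): actgacgGTTGCCAGGCAACggaggca
B9D1 (chr17:19378086-19378113, minus strand): tgggactGTTACCTTGGCTACtggctcc
B9D2 (chr19:41364137-41364164, minus strand): gcctgctGTTGCCCCAGCAACaaccacg
For 6 of the 8, the match began within 15 bases of the annotated start, at the start base itself in TCTN1, whereas in TCTN3 and B9D1 its first base lay at positions -215 and -193 from it. That start is RefSeq's. By GENCODE's gene coordinates, the stretches of TCTN3 and B9D1 overlap their genes, so such positions depend on the annotation. Since the 6 lay across or after the start and the other 2 farther upstream, the 100 bases before the start held 0 matches in the 44 windows (0.609% of all windows), while the 50 bases on each side of it, a window chosen after seeing the data, held 6 (13.6%, against 0.484% of all windows). None of the 8 stretches contained any of the other motifs, which were also searched on both strands. The CCAAT box of NF-Y was in 43.2% of the 44 windows (34.6% of all windows), the GGGCGG box of SP factors in 61.4% (45.0%) and the NRF1 motif in 0 (1.24%). Among the windows of tested genes, these shares were 36.2%, 67.8% and 2.11%, so the GGGCGG box was less frequent in the 44 windows than there. A match is a description of letters and not of a bound site.

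Of the 49 transcripts, 17 were lower with DZNep and 2 were higher beyond both thresholds used here, an adjusted p-value under 0.05 from edgeR's quasi-likelihood test and a log2 fold change (DZNep over Control) beyond 1 in size. Over all genes tested, 13.5% were called lower and 10.6% were called higher, whereas among these genes the shares were 34.7% and 4.08%. Without the fold threshold, 26 were lower (21.8% of all genes tested) and 3 were higher (19.1%). All 4 DZNep libraries were below the lowest Control library for 24 genes (19.4% of all genes tested) and above the highest for 3 (19.5%), and the groups overlapped for the other 22. The median log2 fold change was -0.60, with a range from -3.04 to 1.48, while the median over all genes tested was -0.03. Of the 49 values, 36 were negative and 13 were positive, while 51.4% of the values of all genes tested were negative. Each of the 17 genes called lower was lower in all 4 pairs of same-numbered libraries, which follows from groups that did not overlap. In bulk RNA, fewer cells that express a gene and less RNA per cell cannot be told apart.

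**Figure D1:**
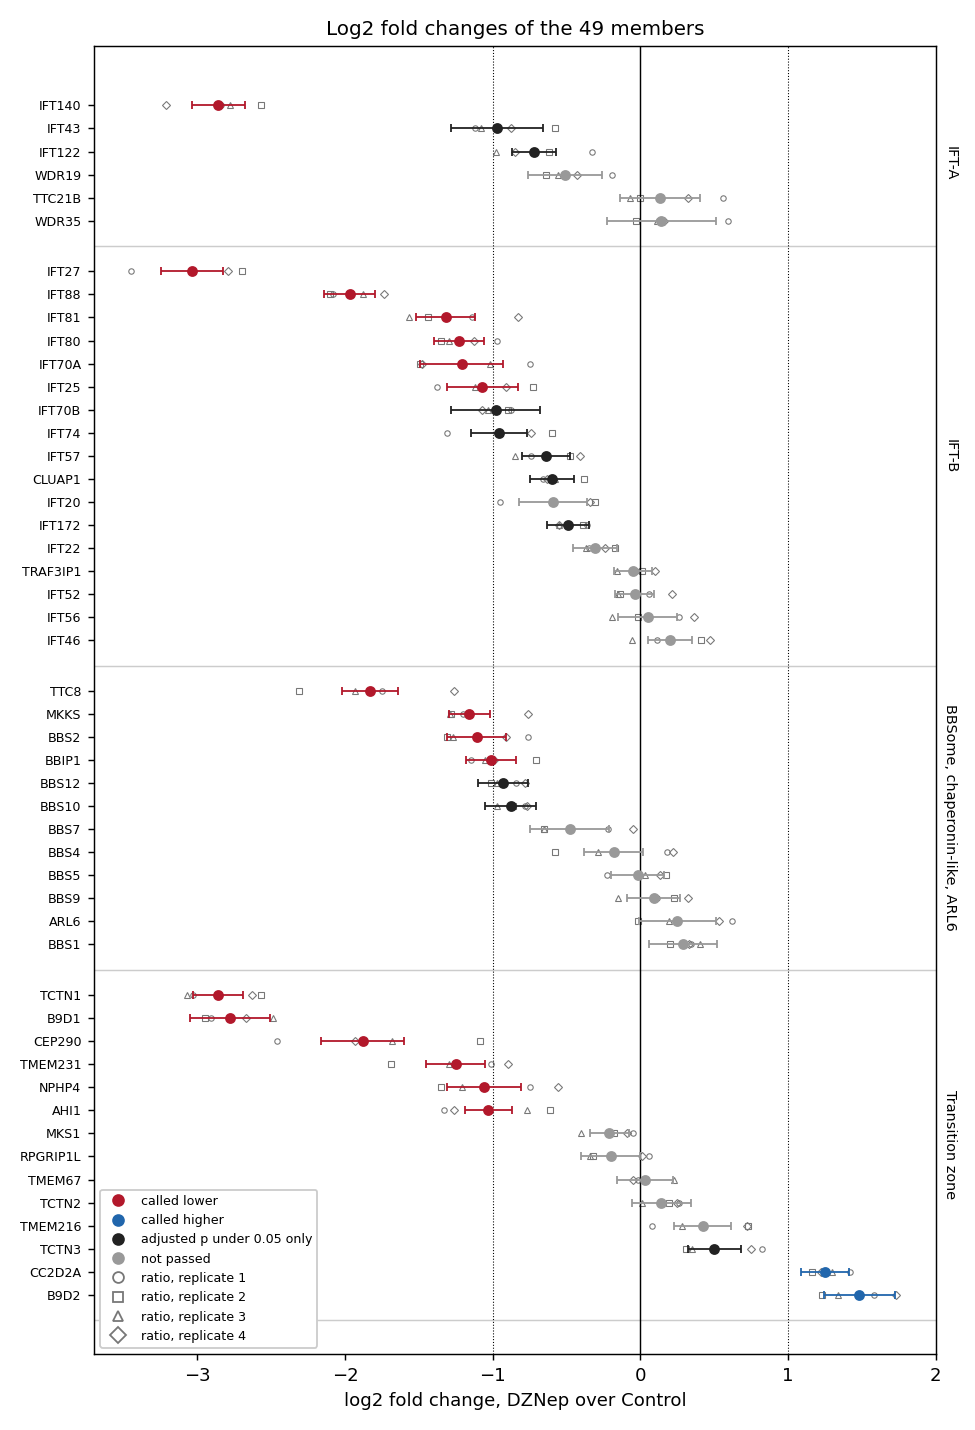
Log2 fold change, DZNep over Control, of each of the 49 genes by complex (filled points, with bars of 1 SE from edgeR), beside the log2 ratio of normalized counts in each same-numbered pair of libraries (open symbols); dotted lines mark the fold threshold. Most points lie left of 0, IFT140, IFT27, TCTN1 and B9D1 lie farthest left, and CC2D2A and B9D2 lie to the right of the threshold.

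IFT-A, the retrograde complex, had 1 gene that was called lower, 2 that passed the adjusted p-value only and 3 that passed neither, with a median log2 fold change of -0.61 over its 6 genes. IFT140 (chr16:1510427-1612072, minus strand), a core subunit of IFT-A, had normalized counts in libraries 1 to 4 of 1728, 1766, 2084 and 1853 in Control and 242, 296, 303 and 200 with DZNep. The groups were far apart, with a lowest Control value of 1728 and a highest DZNep value of 303. Its mean fell from 1858 ± 159 to 260 ± 48.6 (SD, n = 4 each) and its log2 fold change was -2.86 ± 0.18, adjusted p = 5.16e-06, so that 14.0% of the Control mean was left. Here and below, ± is the SE of a log2 fold change and the SD of a mean. WDR19, the core subunit next to it, had 749, 1260, 1096 and 632 in Control and 657, 808, 743 and 469 with DZNep (-0.51 ± 0.25, adjusted p = 0.128), and its groups overlapped although each DZNep library was below the Control library of its number. With the replicate number as a block, its adjusted p was 0.00395, at a log2 fold change of -0.49. IFT43 and WDR35 are peripheral subunits that bind each other. The counts of IFT43 were 1483, 697, 1116 and 1761 in Control and 680, 466, 527 and 954 with DZNep, and those of WDR35 were 988, 2233, 1620 and 735 in Control and 1489, 2191, 1748 and 820 with DZNep. For both genes the Control libraries spread widely, and in opposite orders, since libraries 1 and 4 were highest for IFT43 and lowest for WDR35. For IFT43 the log2 fold change was -0.97 ± 0.31, adjusted p = 0.0269, and for WDR35 it was 0.14 ± 0.37, adjusted p = 0.79. IFT43 passed the fold threshold as well once Control 2 (-1.18), Control 3 (-1.03) or DZNep 4 (-1.20) was left out, which took the IFT-A count from 1 to 2. IFT122, another core subunit, fell by 0.72 on the log2 scale at an adjusted p of 0.0035. TTC21B, a peripheral subunit, was the IFT-A gene nearest to 0, with 632, 1129, 1115 and 535 in Control and 930, 1133, 1065 and 666 with DZNep (0.13 ± 0.27, adjusted p = 0.74), and its groups overlapped.

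IFT-B, the anterograde complex, had 6 of 17 genes called lower and 5 more lower at the adjusted p-value only. None was called higher, by edgeR, DESeq2 or limma, and 0 were higher at an unadjusted p under 0.05. The median log2 fold change was -0.64, and all DZNep libraries lay below all Control libraries for 10 of the 17. IFT27 (chr22:36758202-36776256, minus strand), a small GTPase of the complex needed for BBSome exit from the cilium, had normalized counts of 3109, 1816, 2532 and 2719 in Control and 284, 279, 309 and 394 with DZNep. The highest DZNep value was 394 and the lowest Control value 1816, and the log2 fold change was the lowest of the 49, at -3.04 ± 0.21, adjusted p = 8.84e-06. Its dimer partner IFT25 (chr1:53916574-53945699, minus strand) had 1596, 931, 1036 and 1585 in Control and 614, 561, 478 and 844 with DZNep. The groups of IFT25 were separated by a narrow gap, from 844 in DZNep 4 to 931 in Control 2, and its log2 fold change was -1.07 ± 0.24, adjusted p = 0.00492. Its fold was under the threshold without Control 1 (-0.97), Control 4 (-0.96) or DZNep 3 (-0.96), and with library sizes alone (-0.99).

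The core subunit IFT88 (chr13:20567138-20691444, plus strand), whose mouse loss-of-function allele is a classic model of absent cilia, had normalized counts of 669, 537, 623 and 510 in Control and 159, 125, 169 and 153 with DZNep. It fell from 585 ± 73.9 to 151 ± 19 (SD, n = 4 each) with no overlap and little spread within groups (-1.97 ± 0.17, adjusted p = 2.58e-05). IFT52, the core subunit that binds it, was the IFT-B gene nearest to 0, with 1562, 1620, 1805 and 1389 in Control and 1630, 1470, 1628 and 1606 with DZNep (-0.04 ± 0.13, adjusted p = 0.845), and its groups overlapped. IFT46, which also binds IFT52, had 1898, 1504, 1699 and 1418 in Control and 2045, 1993, 1626 and 1971 with DZNep (0.20 ± 0.15, adjusted p = 0.298), and its groups overlapped too. IFT81 and IFT74 form the coiled-coil dimer that binds tubulin. IFT81 (chr12:110124335-110218793, plus strand) had 1155, 1520, 1732 and 899 in Control and 524, 559, 584 and 505 with DZNep, and IFT74 had 2061, 1096, 1554 and 1520 in Control and 831, 726, 805 and 912 with DZNep. Both were below Control in all 4 DZNep libraries, with a log2 fold change of -1.32 ± 0.20, adjusted p = 0.00064, for IFT81 and of -0.96 ± 0.19, adjusted p = 0.00284, for IFT74. IFT74 passed the fold threshold without Control 2 (-1.09) or, at just past -1, without DZNep 4.

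Of the remaining IFT-B genes, 2 were called lower, IFT80 and IFT70A. IFT80 (chr3:160256986-160399880, minus strand), a peripheral subunit mutated in short-rib thoracic dysplasia, had normalized counts of 908, 1124, 1296 and 893 in Control and 464, 440, 525 and 408 with DZNep. The groups did not overlap (-1.23 ± 0.17, adjusted p = 0.000323), and 27.6% of its exon bases are shared with another annotated gene of the same strand. The near-identical paralogs IFT70A (TTC30A, chr2:177612999-177618742, minus strand) and IFT70B (TTC30B, chr2:177548998-177552796, minus strand) bind the IFT52 to IFT88 core. IFT70A had 447, 810, 563 and 394 in Control and 266, 288, 277 and 142 with DZNep, and IFT70B had 409, 543, 503 and 254 in Control and 221, 292, 246 and 120 with DZNep. DZNep 4 was the lowest library for both, and the groups overlapped for IFT70B only, where Control 4 lay at 254. The log2 fold change was -1.21 ± 0.28, adjusted p = 0.00653, for IFT70A and -0.98 ± 0.30, adjusted p = 0.0247, for IFT70B, and reads that match both copies are uncertain. Without Control 2, IFT70A had -0.97 and was under the fold threshold, while IFT70B passed it without Control 1 (-1.01), Control 4 (-1.17) or DZNep 2 (-1.14).

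CLUAP1 and IFT57, peripheral subunits that bind each other, passed the adjusted p-value only. CLUAP1 had 1136, 811, 985 and 1143 in Control and 718, 621, 657 and 737 with DZNep (-0.60 ± 0.15, adjusted p = 0.0102), and IFT57 had 3171, 2315, 2666 and 2899 in Control and 1898, 1659, 1477 and 2179 with DZNep (-0.64 ± 0.16, adjusted p = 0.0105). Neither had overlapping groups. IFT172, the largest IFT-B subunit, fell by 0.49. TRAF3IP1 and IFT20, which pair with each other and link IFT-B to the Golgi and the microtubules, did not pass. TRAF3IP1 had 1116, 1281, 1245 and 1100 in Control and 1095, 1292, 1111 and 1180 with DZNep (-0.05 ± 0.13, adjusted p = 0.793), and IFT20 had 1616, 880, 1088 and 1442 in Control and 835, 708, 720 and 1142 with DZNep (-0.59 ± 0.23, adjusted p = 0.0609). The groups overlapped for both. With the replicate block, the adjusted p was 0.00153 for IFT20 and 0.0327 for the GTPase IFT22, whose value without it was 0.114 at -0.31. Of IFT22's exon bases, 59.0% are shared with an antisense RNA, so its reads are uncertain.

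Of the 12 genes of the BBSome group, 4 were called lower, 2 passed the adjusted p-value only and 6 passed neither, and the median log2 fold change was -0.68. None was called higher by edgeR, DESeq2 or limma, with 0 higher at an unadjusted p under 0.05. Over the 8 BBSome subunits alone, 3 were called lower and the median was -0.33, while the 3 chaperonin-like genes had a median of -0.93 and separate groups in every case. TTC8 (chr14:88824153-88881078, plus strand), the subunit also named BBS8, had normalized counts of 695, 691, 766 and 533 in Control and 207, 139, 201 and 223 with DZNep. It fell from 671 ± 98.4 to 193 ± 36.6 (SD, n = 4 each), the lowest log2 fold change of the group (-1.83 ± 0.19, adjusted p = 7.67e-05), and its groups were well apart. BBS9, a scaffold subunit that binds TTC8, had 594, 668, 746 and 458 in Control and 641, 785, 670 and 570 with DZNep (0.09 ± 0.18, adjusted p = 0.731), with overlapping groups. BBS2 and BBS7 build the intermediate core from which BBSome assembly starts. BBS2 (chr16:56465640-56582667, minus strand) had 1250, 1519, 1818 and 1009 in Control and 736, 611, 752 and 538 with DZNep (-1.11 ± 0.20, adjusted p = 0.00176), and BBS7 had 1461, 2157, 2244 and 921 in Control and 1257, 1373, 1429 and 891 with DZNep (-0.48 ± 0.27, adjusted p = 0.189). The groups of BBS2 did not overlap, but without Control 3 its value was -0.96, under the fold threshold. Those of BBS7 overlapped, as Control 4 lay at 921, and its adjusted p with the replicate block was 0.0115.

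BBIP1 (chr10:110898730-110919201, minus strand), the small subunit BBS18, had normalized counts of 1087, 768, 982 and 1169 in Control and 490, 468, 475 and 589 with DZNep and a log2 fold change of -1.01 ± 0.17, adjusted p = 0.000925. The groups did not overlap, but this value was so near the threshold that 11 of the 16 alternatives took it under, at -0.93 to -0.99. Among these were the fits without Control 1 (-0.98), Control 4 (-0.94), DZNep 1 (-0.98), DZNep 2 (-0.97) and DZNep 3 (-0.98). BBS5, the phosphoinositide-binding subunit, was the nearest to 0 of the group, with 584, 353, 463 and 429 in Control and 497, 395, 472 and 470 with DZNep (-0.02 ± 0.18, adjusted p = 0.939), and its groups overlapped. The chaperonin-like genes MKKS, BBS10 and BBS12 encode a complex that binds BBS7 and assists assembly of the BBSome core. MKKS (chr20:10401009-10434222, minus strand) had 1434, 1285, 1441 and 1131 in Control and 623, 529, 590 and 667 with DZNep and fell with no overlap (-1.16 ± 0.14, adjusted p = 0.000183). BBS10 had 1307, 1376, 1502 and 994 in Control and 761, 758, 765 and 583 with DZNep (-0.88 ± 0.17, adjusted p = 0.00221), and BBS12 had 321, 293, 309 and 242 in Control and 179, 145, 158 and 141 with DZNep (-0.93 ± 0.17, adjusted p = 0.00165). All DZNep libraries were below all Control libraries for both, and BBS12 passed the fold threshold without Control 4 (-1.01). BBS1, BBS4 and ARL6, the GTPase that brings the BBSome to membranes, had log2 fold changes from -0.18 to 0.29 and overlapping groups. For BBS1, 54.0% of the exon bases are shared with another annotated gene of the same strand.

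The transition zone had 6 of 14 genes called lower (42.9%, against 13.5% of all genes tested). Called higher were 2 (14.3%), a share near the 10.6% of all genes tested. Another 1 was higher at the adjusted p-value only, and 5 did not pass. The median log2 fold change was -0.20. The tectonics are related transition zone proteins. TCTN1 (chr12:110614027-110663431, plus strand) had normalized counts of 1626, 1114, 1513 and 1417 in Control and 199, 188, 180 and 229 with DZNep. It fell from 1418 ± 220 to 199 ± 21.9 (SD, n = 4 each; -2.86 ± 0.17, adjusted p = 4.82e-06), and the highest DZNep library (229) lay far below the lowest Control library (1114). TCTN2 had 521, 739, 671 and 463 in Control and 623, 845, 676 and 549 with DZNep (0.14 ± 0.20, adjusted p = 0.594), and TCTN3 had 1398, 2195, 1859 and 1349 in Control and 2460, 2729, 2373 and 2262 with DZNep (0.50 ± 0.18, adjusted p = 0.0438). The groups of TCTN2 overlapped, whereas TCTN3 was above Control in every DZNep library without reaching the fold threshold.

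B9D1 and B9D2 belong with MKS1 to the B9 domain module. B9D1 (chr17:19334308-19378193, minus strand) had 1660, 1122, 1187 and 1996 in Control and 220, 145, 211 and 314 with DZNep, while B9D2 (chr19:41354417-41364165, minus strand) had 125, 126, 99.4 and 150 in Control and 374, 296, 252 and 499 with DZNep. The groups did not overlap for either gene, and the directions were opposite. B9D1 fell from 1491 ± 413 to 222 ± 69.5 (-2.78 ± 0.27, adjusted p = 5.74e-05), and B9D2 rose from 125 ± 20.8 to 355 ± 109 (SD, n = 4 each; 1.48 ± 0.24, adjusted p = 0.00087), the highest log2 fold change of the 49. Of B9D1's exon bases, 26.5% are shared with EPN2 on the other strand, which did not pass (-0.32, adjusted p = 0.224). CC2D2A (chr4:15469865-15601552, plus strand), a C2 domain protein of the same module, had 467, 606, 486 and 432 in Control and 1251, 1356, 1199 and 1005 with DZNep. It rose from 498 ± 75.6 to 1203 ± 147 (1.25 ± 0.16, adjusted p = 0.000231), with a lowest DZNep library of 1005 against a highest Control library of 606.

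CEP290 (chr12:88049016-88142099, minus strand), the protein that links the axoneme to the ciliary membrane, had normalized counts of 4344, 2003, 2767 and 4734 in Control and 787, 938, 865 and 1245 with DZNep. Control libraries 1 and 4 were higher than libraries 2 and 3, and all stayed above the highest DZNep value of 1245 (-1.88 ± 0.28, adjusted p = 0.000496). TMEM231 (chr16:75536741-75556289, minus strand), a membrane protein of the transition zone, had 498, 568, 684 and 422 in Control and 248, 176, 278 and 226 with DZNep and fell with no overlap (-1.25 ± 0.20, adjusted p = 0.00085). NPHP4 (chr1:5862811-5992473, minus strand), of the nephronophthisis module, had 351, 643, 562 and 298 in Control and 210, 253, 243 and 202 with DZNep. Its groups were close, with 298 in Control 4 against 253 in DZNep 2, and its log2 fold change of -1.06 ± 0.25, adjusted p = 0.00685, was under the fold threshold without Control 2 (-0.86) or Control 3 (-0.96) and with limma (-0.96). AHI1 (chr6:135283407-135498434, minus strand), the Joubert syndrome protein jouberin, had 1409, 974, 1045 and 1378 in Control and 561, 639, 614 and 577 with DZNep. The groups did not overlap (-1.03 ± 0.16, adjusted p = 0.000677), and the value was under the threshold without Control 1 (-0.96), Control 4 (-0.97) or DZNep 1 (-0.98). The call of AHI1 was also lost with library sizes alone (-0.94), limma (-0.99), DESeq2 and no filter on low counts, hence in 7 of the 16 alternatives. TMEM67, the membrane protein meckelin, was the transition zone gene nearest to 0, with 348, 411, 399 and 303 in Control and 344, 416, 469 and 292 with DZNep (0.03 ± 0.19, adjusted p = 0.909) and overlapping groups. MKS1, RPGRIP1L and TMEM216 lay between -0.21 and 0.42 with overlapping groups, and TMEM216 had an adjusted p of 0.0184 with the replicate block (0.0971 without).

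**Figure D2:**
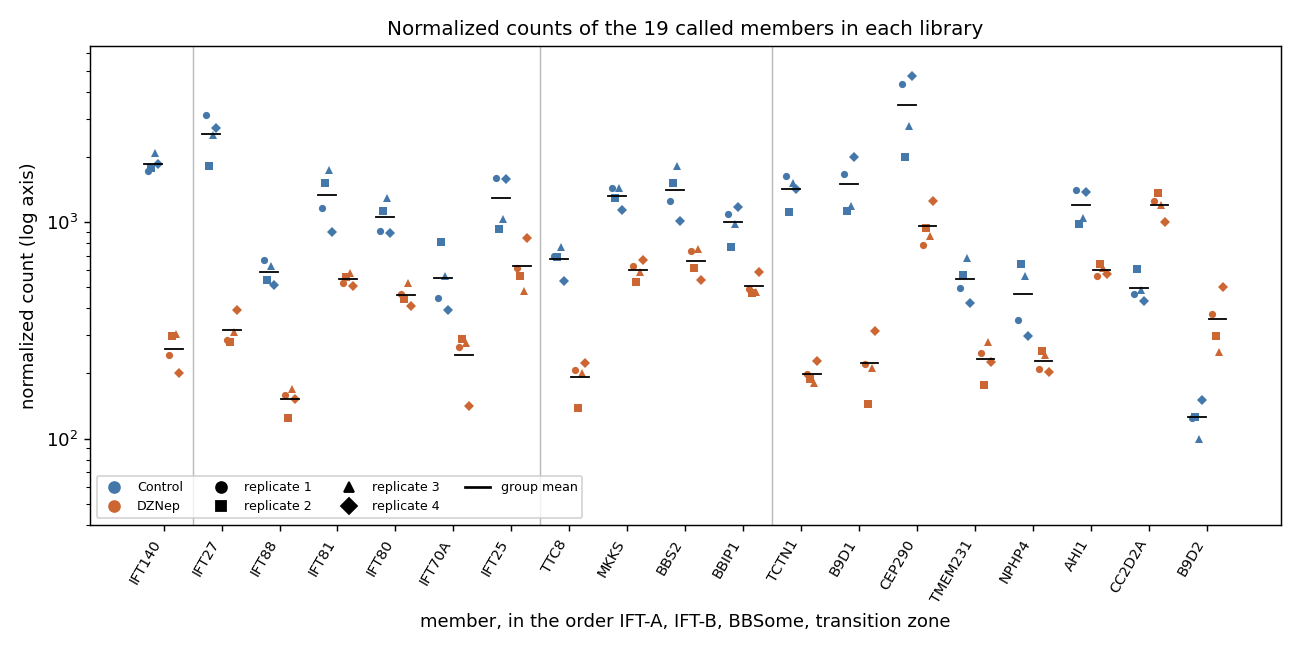
Normalized counts (log axis) of the 19 called genes in each of the 8 libraries, by complex, with symbols for the replicate numbers and a line at each group mean. The 4 DZNep libraries lie below the 4 Control libraries for 17 genes and above them for CC2D2A and B9D2.

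Whether genes whose proteins bind each other or share a family moved together was examined with 15 ratios of 2 genes within each library, which do not depend on the library's size factor. The 8 ratios whose groups did not overlap all gave p = 0.0286 in a two-sided exact permutation test, the smallest p that 4 against 4 libraries allow, and after adjustment over the 15 ratios each had p = 0.0536, so none of the 15 passed this unpaired test. The widest difference was that of B9D1 to B9D2, whose log2 ratio was 3.54 ± 0.27 in Control and -0.68 ± 0.32 with DZNep (SD, n = 4 each), an 18.6-fold difference. Per kb of exon, with all annotated exons joined, B9D1 had a mean of 176 normalized counts and B9D2 of 84.6 in Control. With DZNep they had 26.2 and 240, so their order was turned. TCTN1 to TCTN2 had a log2 ratio of 1.25 ± 0.49 in Control and -1.74 ± 0.39 with DZNep, and IFT140 to WDR19 one of 1.04 ± 0.45 and -1.35 ± 0.11. In all 3 of these ratios, every DZNep library was below the lowest Control library.

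Among the transport and BBSome partners, the log2 ratio of IFT27 to IFT25 was 1.00 ± 0.21 in Control and -0.96 ± 0.23 with DZNep. That of IFT88 to IFT52 was -1.45 ± 0.16 and -3.39 ± 0.12, and that of TTC8 to BBS9 was 0.13 ± 0.10 and -1.80 ± 0.48. These differences of -1.96, -1.94 and -1.93 were nearly equal in size. The smaller differences without overlap were those of BBS2 to BBS7 (by -0.67) and TCTN3 to TCTN2 (by 0.38). In the remaining 7 ratios the groups overlapped, with p from 0.114 to 0.6 in the unpaired test. CLUAP1 to IFT57 (-1.44 ± 0.07 and -1.39 ± 0.16) and BBS12 to BBS10 (-2.14 ± 0.13 and -2.19 ± 0.16) differed least, and the partners in each of these 2 pairs fell by similar amounts (-0.60 and -0.64, -0.93 and -0.88). IFT43 to WDR35 had the widest spread, with a Control SD of 1.29 against a difference of -1.13. Within the 4 pairs of same-numbered libraries, however, its differences were -1.72, -0.55, -1.19 and -1.04. The differences had 1 sign in all 4 pairs for 11 of the 15 ratios, which were the 8 without overlap and 3 with overlap, IFT43 to WDR35, TRAF3IP1 to IFT20 (0.33 to 0.92) and IFT46 to IFT52 (0.05 to 0.55). An exact sign-flip test over 4 pairs cannot give a two-sided p below 0.125, so these paired differences are a description. The counts of ratios without overlap or with 1 sign were not set against ratios of other genes. The 15 pairs were also chosen with earlier results of these data known.

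**Figure D3:**
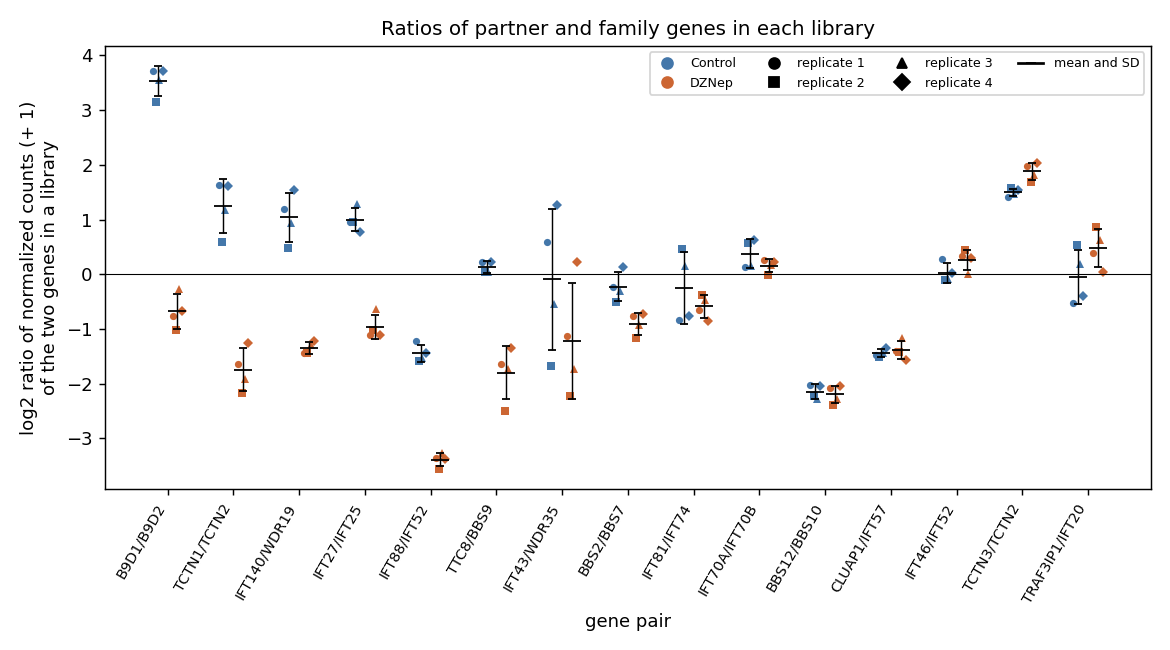
Log2 ratio of the normalized counts (each plus 1) of 2 partner or family genes in each library, with the mean and SD of each group, for 15 pairs. The B9D1 to B9D2 ratio lies between 3.15 and 3.72 in Control and between -1.02 and -0.26 with DZNep, and 8 of the 15 pairs have groups that do not overlap.

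Levels per kb of exon ranged in Control from 25.2 normalized counts per kb for TTC21B to 761 for IFT57, with IFT52 at 628. They compare genes only roughly, since the length joins all annotated exons (33812 bases for TTC21B, 3631 for IFT57) and is not that of 1 transcript. Across the 49 genes, the log2 fold change had a Spearman correlation of -0.08 with the Control level per kb, -0.20 with exon length and -0.12 with gene span, as a description over genes that share the same 8 libraries (-0.14, -0.01 and -0.05 over 18978 genes). As for the X-box, 3 of the 17 genes called lower (17.6%) and 5 of the other 27 genes with a window (18.5%) held one. Of the 8 with a match, TCTN1, B9D1 and IFT70A were called lower, B9D2 was called higher, and IFT122, IFT57, IFT70B and TCTN3 passed the adjusted p-value only. For the 17 called genes other than IFT80 and B9D1, any 1 other annotated gene shared at most 15.1% of the exon bases (PDCD4 on the other strand in BBIP1). In Control, both libraries 2 and 3 were above both libraries 1 and 4 for 25 of the 49 genes, and the reverse held for 12. These counts were not set against all genes tested, so they are not shown to be particular to the 49.

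The 8 libraries held between 25043058 (Control 1) and 44902779 counts. Mitochondrial transcripts took 7.04% to 13.7% of the counts in replicates 1 and 4 of both groups and 3.02% to 4.44% in replicates 2 and 3. With replicates 2 and 3 alone, 15 of the genes described here were called lower and 2 higher, and with replicates 1 and 4 alone, 13 were lower and 2 higher, both chosen after seeing the data. The shares of all genes called in these fits are not given here, so the counts are not set against a background. Of the markers of HEK293T cells, all 7 were detected and 1 was called higher, KRT8, a keratin (2.44). At the adjusted p-value only, KRT18 (0.83) was higher and PAX2 (-0.54) was lower. Of 7 multiciliated cell markers, 1 was called higher (GMNC), CCNO (-0.62) was lower at the adjusted p-value only, and DESeq2 called 1 lower. MCIDAS (-0.45), TPPP3 (0.38) and PIFO (0.46) did not pass. DNAH5 was not tested, with means of 10.3 in Control and 2.76 with DZNep, and the defining factor FOXJ1 had at most 6 raw counts in any library. The summed level of the 7 was 607 to 851 normalized counts in Control and 594 to 853 with DZNep. Of 5 fibroblast markers 1 was called higher, LUM, a collagen-binding proteoglycan (2.08), with a sum of 3335 to 6492 against 3662 to 7512. Of 5 leukocyte markers 1 was called lower, LST1 (-1.17), with a sum of 233 to 370 against 234 to 411, and CD3E had 0 counts in Control and at most 36 raw counts with DZNep. DESeq2 and limma each called 1 leukocyte marker lower and 1 higher. The 5 markers of differentiated kidney tubule summed to 9.82 to 36.5 against 17.7 to 45.8, 1 could be tested and was not called, and UMOD had no count in any library. Of 8 proliferation markers, 0 were called by edgeR, DESeq2 or limma (2 lower and 2 higher at an unadjusted p under 0.05, of which PCNA at -0.75 and CCNB1 at 0.89 passed the adjusted p-value), and their sum was 77949 to 106213 against 101498 to 107187. The part of these markers in the results above was not tested.

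Other genes of the cilium were examined as 7 lists of 80 genes in all, of which 78 could be tested, 19 were called lower and 4 higher (13.5% and 10.6% of all genes tested). Of 13 ciliary motor genes, 4 were called lower and 0 higher (0 at an unadjusted p under 0.05 and 0 by DESeq2 or limma), and all 4 encode dynein-2, the retrograde motor. DYNC2H1, its heavy chain, had 4395, 7023, 4717 and 4992 normalized counts in Control and 834, 1040, 975 and 808 with DZNep, with no overlap (log2 fold change of -2.56 ± 0.19, adjusted p = 1.21e-05). DYNC2LI1, the light intermediate chain, had -1.85, and DYNLT2B, a light chain, -1.43. The kinesin-2 genes of the outward motor were not called, with -0.58 for KIF3A, which passed the adjusted p-value, and -0.02, 0.13 and 0.11 for KIF3B, KIF3C and KIFAP3, which did not. DYNC2I2, an intermediate chain of dynein-2, had -0.67 and passed the adjusted p-value only. In the same list, the dynein light chains DYNLRB1 (-0.61), DYNLT1 (-0.48) and DYNLL1 (0.17) and the kinesin KIF17 (-0.30) did not pass.

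Of 16 further genes of the transition zone and inversin compartment, 7 were called lower and 0 higher (1 at an unadjusted p under 0.05, 0 by DESeq2 or limma), with a median of -0.95. NEK8, an inversin compartment kinase, had -2.03, and TMEM17, a transition zone membrane protein, -1.61. At the adjusted p-value only, TMEM237 (0.59), another transition zone membrane protein, was higher, and IQCB1 (-0.98), TMEM218 (-0.91) and RPGR (-0.75) were lower. Of 12 distal appendage and centriole cap genes, 4 were called lower and 0 higher (0 at an unadjusted p under 0.05, 0 by DESeq2 or limma). They were led by FBF1, a distal appendage protein (-2.16), KIF24, a centriolar kinesin (-1.53), and SCLT1, a distal appendage protein (-1.25), while CEP164 (-0.92) and TTBK2 (-0.90) passed the adjusted p-value only. Of 14 ciliary GTPase and cargo adaptor genes, 2 were called lower, among them the GTPase RABL2A (-1.01), and 1 was called higher, INPP5E, a ciliary phosphoinositide phosphatase (1.35). These counts were near the shares over all genes tested (13.5% lower and 10.6% higher), and the list's median was -0.10. LZTFL1 (-0.77), a BBSome regulator, passed the adjusted p-value only. RABL2A has a near-identical copy, RABL2B (-0.77), and its call was lost with the replicate block (-0.99) and with DESeq2, each of which called 1 gene of that list lower.

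Of the 9 RFX and motile cilium transcription factors 7 could be tested, and 0 were called lower (2 at an unadjusted p under 0.05, 0 by DESeq2 or limma). GMNC, a multiciliation regulator, was called higher (1.72) at means of 16.1 and 55.9 normalized counts. RFX3, an activator of cilium genes, had -0.01 (adjusted p = 0.983). RFX1 (0.60), RFX5 (0.75) and RFX2 (-0.59) passed the adjusted p-value only. Of 10 Hedgehog pathway genes, the transcription factors GLI1 (-1.68) and GLI2 (-1.24) were called lower and their inhibitor SUFU (1.05) was called higher, while the receptor GPR161 (-0.58) passed the adjusted p-value only. Of 6 cilium disassembly genes, PLK1, a mitotic kinase that also acts at the ciliary base, was called higher (1.46) and 0 were called lower (1 at an unadjusted p under 0.05, 0 by DESeq2 or limma). At the adjusted p-value only, AURKA (0.73), NEK2 (0.81) and TPX2 (0.61), which also serve mitosis, were higher, and HDAC6 (-0.51), a tubulin deacetylase, was lower.

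**Figure D4:**
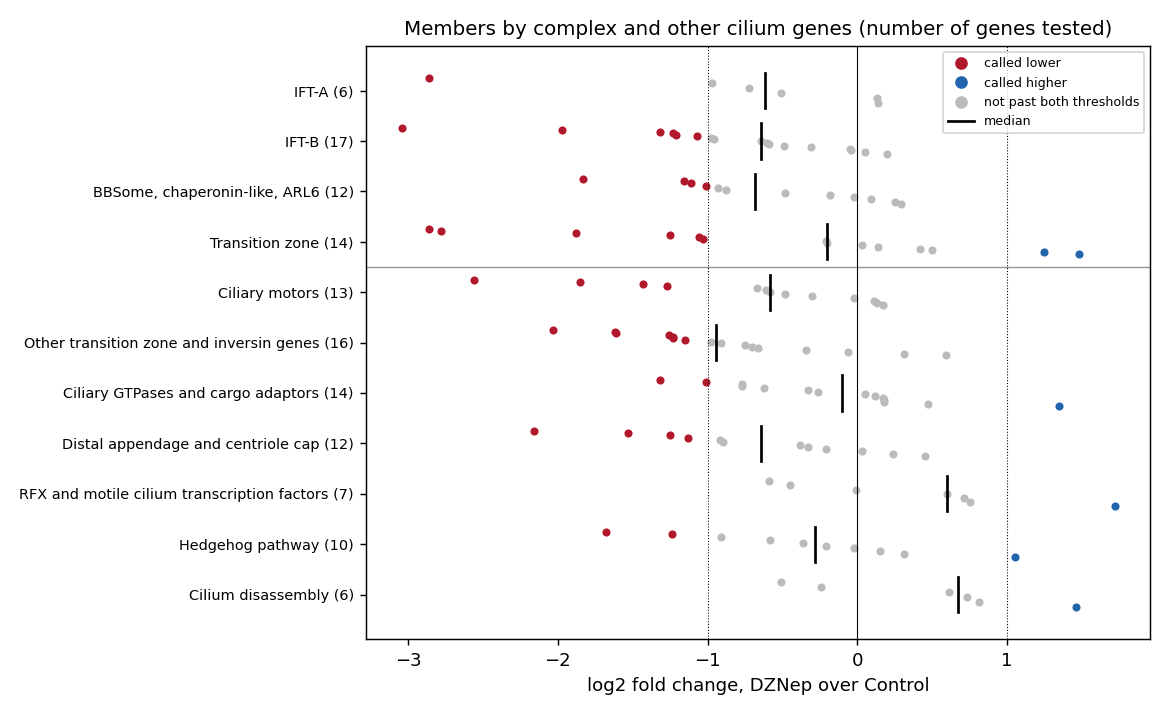
Log2 fold change, DZNep over Control, of every tested gene in the 4 groups described here and in 7 other lists of cilium and Hedgehog genes, with the number of genes tested in parentheses and a line at each median. Medians lie between -0.95 and -0.10 for the groups above and below the divider except the RFX and motile cilium transcription factors (0.60) and cilium disassembly genes (0.67).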

How the data were processed

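RNAseq was performed on 4 Control and 4 DZNep samples of HEK293T cells. Per the study's methods and processing notes, paired reads were trimmed (Trimmomatic 0.36) and aligned to GRCh38 (STAR 2.5.2b), and reads falling uniquely in exons were assigned to genes (featureCounts, Subread 1.5.2). The annotation release and strandedness are not given in the sources used here, so reads of antisense or overlapping genes cannot be told apart. The first deposited table holds raw counts, without normalization. The other deposited table is a signal, the normalized counts. On checking, each value equalled the count over its library's size factor, for the 19118 genes with more than 80 counts in total.

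Counts of 57500 genes were tested with edgeR 4.0.16 in R 4.3.3 (quasi-likelihood test, TMM, filterByExpr, Benjamini-Hochberg adjustment over 19171 genes, tested on simulated data), with the thresholds of the study, whose test was DESeq2's. SE is the log2 fold change divided by the square root of F. Per-library values are the deposited normalized counts. Ratios used a pseudocount of 1. GENCODE's GRCh38 annotation gave exon lengths (the union of all annotated exons of a gene), overlaps and coordinates. Library totals were 25043058 to 44902779 counts, which limits low genes most in Control 1. Libraries of a group differed beyond sampling noise (lowest chi-square per degree of freedom 27.3), and the study calls them biological replicates without naming separate cultures, so p-values measure only the spread between these samples, which may be technical. Deviations from the group means correlated between same-numbered libraries at 0.136, 0.492, 0.429 and 0.673, all over 0.1, so the numbers were taken to pair them. Other combinations also correlated, Control 1 with DZNep 4 at 0.529, Control 2 with DZNep 3 at 0.398 and Control 3 with DZNep 2 at 0.343, so this pairing is not exclusive to the numbers.

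The genes, lists and pairs were chosen with earlier results of these data known. Named genes are every called gene, the gene nearest to 0 in each complex, both genes of each pair, and up to 3 called genes of each list, while members of the 4 complexes past the adjusted p-value only are named with their log2 fold change. The results of 2 list genes that this rule names are not reported here. Genes outside this rule were named after their values were seen. Alternatives were other normalizations and filters, DESeq2 1.42.0, limma 3.58.1 on log2(normalized count + 1), glmTreat, the replicate block, other pseudocounts and promoter windows, and leaving out each library.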

Additional observations from a re-analysis of the deposited data

Results flagged for a closer look

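Of 98 groups of 4 libraries (49 genes in Control and with DZNep), 4 held a library far from the other three by Dixon's 95% criterion for the gap over the range, while chance gives about 1 in 20 groups. IFT52 was lowest in DZNep 2, at 1470 normalized counts (gap over range 0.855). IFT70A was lowest in DZNep 4, at 142 (0.846). BBS10 was lowest in DZNep 4, at 583 (0.96). BBS1 was highest in Control 4, at 240 (0.929).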

How the results depend on the processing

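The 17 genes called lower became 15 to 19 when 1 library was left out and 14 to 17 under the other normalizations, filters, tools and the block, and the 2 called higher, B9D2 and CC2D2A, stayed called in all of these. Of the 17, 11 stayed called in all 16 of these alternatives, 6 were lost in at least 1, 4 other genes were gained in at least 1, and 0 of the 19 changed direction. Every such loss or gain was by the fold threshold, at an adjusted p under 0.05. Tested against a log2 fold change of 1 with edgeR's glmTreat, 7 were lower (IFT140, IFT27, IFT88, TTC8, TCTN1, B9D1 and CEP290) and 0 were higher (2 at an unadjusted p under 0.05), and the counts lower were 2 in IFT-B, 1 in the BBSome group and 3 in the transition zone. Without a fold threshold, 26 were lower, 3 of them in IFT-A and 11 in IFT-B. Without 1 library, the IFT-A count was 1 to 2. With the replicate block, 17 were lower and 2 higher, no call changed for the 49 genes, and 5 more (WDR19, IFT20, IFT22, BBS7 and TMEM216) passed the adjusted p-value, so that without the fold threshold 30 were lower and 4 higher. For glmTreat, the replicate block and the other alternatives, the shares over all genes tested are not given here. The median over all genes tested was -0.03 with TMM and 0.05 with library sizes alone. The partner ratios kept within 1 SD of their values under each pseudocount and library left out, and the replicate block was applied to them as an exact sign-flip test over the 4 pairs, whose smallest two-sided p is 0.125. Depth limits the low genes such as GMNC and FOXJ1, not the 49 genes, whose lowest Control mean was 125 normalized counts (B9D2).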
